A study of Homo sapiens with 4 samples.

Results

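Ribosome biogenesis and RNA polymerase I genes were described in 4 libraries of HCT116, a human colon cancer cell line. The set holds 35 genes, chosen by name as rows of the count files among 20812 genes in all, and all 35 were found. The 4 groups were wild type HCT116 with the solvent DMF, wild type with 1 mM indole, HCT116 overexpressing human IDO1 with DMF, and the IDO1 line with 1 mM indole, each for 24 h. Indole is a bacterial breakdown product of tryptophan, and IDO1 is the enzyme that starts the conversion of tryptophan to kynurenine. How the IDO1 line was made, whether it is a clone, and which promoter drives IDO1 are not given in the sources used here. Each group was 1 library, so no difference between a pair of libraries has a replicate check.

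RNA polymerase I transcribes the ribosomal DNA repeats in the nucleolus into a long precursor of ribosomal RNA. Small nucleolar ribonucleoproteins (snoRNPs) modify that precursor, and large assemblies fold it, cut it and load it with ribosomal proteins to give the small and large subunits. Cells that grow fast, cancer cells among them, keep this machinery highly expressed, and its genes are known targets of growth-controlling transcription factors that bind the E-box CACGTG. Ribosomal RNA itself was not measured here, and each gene was read from 1 short amplicon. Levels are compared between libraries and not between genes.

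The E-box is shown first because it was found in the promoters of many of these genes, a feature that the choice of genes did not use. RefSeq promoters on GRCh38.p14, each from 250 bases before to 50 bases after a gene's annotated start, were matched by symbol for 29 of the 35 genes. BOP1, NOLC1, NOP58, RRP12, RRP1B and TCOF1 were not matched. CACGTG, which reads the same on both strands, was present for 14 of the 29 genes (48.3%). Among 6586 matched genes with at least 10 CPM in a library (CPM, a gene's reads scaled to a common library size), 13.2% held it, and 8.77% did so among all 27305 genes with a promoter. In 9 of the 14 genes the motif lay in the 50 bases after the start, 3 to 35 bases from it. That window held the motif in 31.0% of the 29 genes, against 1.62% of the 6586. In the 250 bases before the start it was present for 4 of the 29 genes (13.8%), near the 11.8% of the 6586. The 7 stretches that follow are genes with a large or a small difference with indole, read 5′ to 3′ along the gene's strand, with the E-box in capitals.

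NOP10: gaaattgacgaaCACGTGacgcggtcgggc
FBL: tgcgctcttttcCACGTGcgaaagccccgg
PES1: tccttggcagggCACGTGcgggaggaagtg
NOP2: gctaggtccggattgCACGTGgagggccgc
NAT10: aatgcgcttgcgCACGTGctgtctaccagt
NOP14: tccgcggcccggCACGTGtcttagggtagc
MYBBP1A: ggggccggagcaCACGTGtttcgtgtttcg

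On GRCh38.p14 the stretch of NOP10 is chr15:34343130-34343159 on the minus strand, with the motif beginning 11 bases before the start. FBL is at chr19:39846356-39846385 on the minus strand, 6 bases after the start. PES1 is at chr22:30591880-30591909 on the minus strand, 13 bases after it, and NOP2 at chr12:6568242-6568271 on the minus strand, 35 bases after it. NAT10 is at chr11:34105602-34105631 on the plus strand, 15 bases before its start. NOP14 is at chr4:2963374-2963403 on the minus strand, 15 bases after its start, and MYBBP1A at chr17:4555340-4555369 on the minus strand, 27 bases after it. BYSL, GAR1, GNL3, RRP9, UTP14A, UTP20 and WDR43 also held the motif. GCGTG, the core that the aryl hydrocarbon receptor binds, was searched on both strands as GCGTG or CACGC. It was present for 20 of the 29 genes (69.0%), against 60.6% of the 6586 and 40.6% of all 27305, and in the 250 bases before the start for 16 (55.2%), against 55.6% of the 6586. The motifs can overlap by the bases they share. A match is a description of letters and not of binding.

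The libraries held 18283862 to 22736172 reads. Of all reads in wild type, the 35 genes took 0.611% with DMF (95% Clopper-Pearson interval 0.608 to 0.614) and 0.513% with indole (0.510 to 0.516). Their share in the IDO1 line was 0.661% with DMF (0.657 to 0.664) and 0.686% with indole (0.683 to 0.690). IDO1 itself had 0 and 2 reads in wild type, against 3451 and 2440 in its overexpressing line, the same way as the labels. Of 13 colon epithelial markers, 6 were at 10 CPM or more in every library: EPCAM, KRT8, KRT18, KRT19, CDH1 and CDX2. KRT20 was at 2.04 to 2.63 CPM, LGALS4 had 4 to 13 reads, and VIL1 and CDH17 had 0 to 2 reads. CDX1, CEACAM5 and GPA33 had 0 reads in all 4. The wild type indole library was the most distant, with a score of 32.6 on a principal component that carried 73.0% of the variance, against -15.3 to -3.69 for the other 3. Left without the 35 genes, the component gave it 32.5. Every result on wild type with indole below rests on that single library.

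Values are CPM after scaling by the trimmed mean of M values (TMM). A log2 ratio is of CPM plus 1, for genes with at least 10 CPM in 1 of the libraries compared. A fold is a ratio of CPM, followed in brackets by its 95% interval, which covers counting error only. Copies of a molecule made by amplification are counted as separate reads, and the intervals do not cover the error between cultures. Where 4 levels of a gene are given, they are in the order wild type DMF, wild type indole, IDO1 line DMF and IDO1 line indole. Of the 35 genes, 33 passed the minimum for indole against DMF in wild type and 34 for the other 3 comparisons. RRP9, a U3 snoRNP protein, passed in none, with 2, 1, 1 and 0 reads, all at or under the 3 reads that a count of 0 allows. GAR1 passed in every comparison except indole against DMF in wild type. NPM1 and RRN3 have near-identical pseudogene copies that could share reads, and their values are uncertain.

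**Figure D1:**
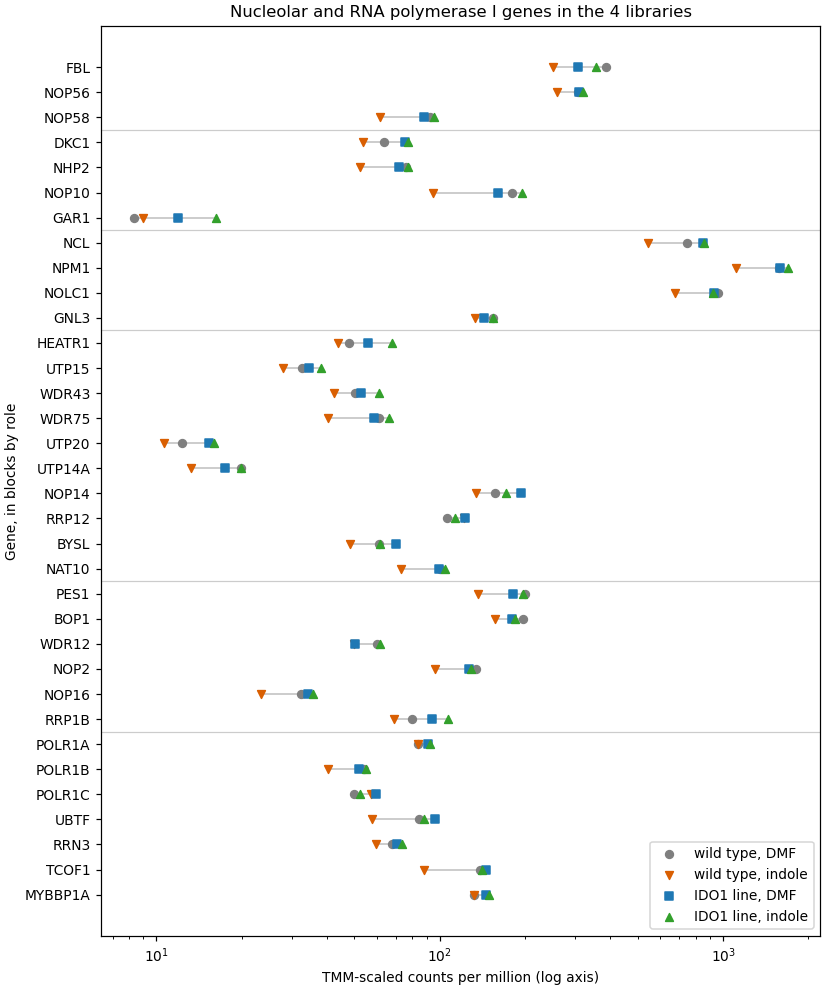
TMM-scaled CPM (log axis) of 34 genes in the 4 libraries, in blocks by role, with 1 symbol per library and a line from the lowest to the highest; RRP9 is left out. Wild type with indole is the lowest symbol for 30 of the 34 genes and the highest for 0.

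The first comparison asked how the set differed with indole in wild type cells. Most of the genes were lower with indole, by small amounts: 30 of 33 had a log2 ratio below 0, against 53.8% of all 8679 genes compared, and the other 3, RRP12, POLR1C and MYBBP1A, were above 0, against 46.2%. The median log2 ratio was -0.33, with a range from -0.91 to 0.20, and that of all genes was -0.04. Levels at least 20% lower were seen for 18 of 33 genes (54.5%), against 25.3% of all genes, and levels at least 25% higher for 0, against 19.5%. Abundant genes in general were lower. With a minimum of 50 CPM, 25 of 28 members were below 0, against 62.7% of all genes, and 16 were at least 20% lower, against 32.6%. At 1.5-fold, 3 genes were lower, which at 9.09% is near the 9.72% of all genes, and 0 were higher, against 7.09%. These counts use CPM plus 1, by which WDR75 and UTP14A, both 1.51-fold lower by CPM alone, fell just short. With 0.25 added in place of 1, 4 genes were lower, against 10.2% of all genes. None was 2-fold apart, against 1.54% lower and 1.36% higher of all genes. The members' share was thus above that of all genes at the lower limit and near it at 1.5-fold. In RNA from whole cultures, fewer cells that express a gene and less RNA per cell cannot be told apart.

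Scaling moved the level of this comparison. When CPM was taken from library totals, the median of all genes went to 0.14, the set's median to -0.16, and 28 of 33 genes were below 0, against 37.5% of all genes, with HEATR1 and POLR1A changing sign. The split of all genes with library totals was 13.8% at least 20% lower and 32.4% at least 25% higher, and that of the set 11 lower and 2 higher. MYBBP1A, at 0.00 with TMM, was below 0 with median-of-ratios size factors. Removal of a trend with abundance, GC content and transcript length gave a median of -0.23, with 29 of 33 below 0, against 50.4% of all genes, and GNL3 above. Then 12 of 33 were at least 20% lower, against 19.1% of all genes, and 1 was at least 25% higher, against 19.3%. By role, the medians with library totals were below 0, at -0.40 for box C/D, -0.36 for box H/ACA, -0.31 for the nucleolar chaperones and GTPase, -0.06 for the small subunit processome, -0.22 for large subunit assembly and -0.01 for RNA polymerase I and its factors.

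Without the trends with abundance, GC content and length the order of the role groups with indole in wild type turned. Box C/D went from -0.58 to -0.20, box H/ACA from -0.53 to -0.18 and the chaperones and GTPase from -0.48 to -0.19, while RNA polymerase I and its factors went from -0.18 to -0.25 and large subunit assembly from -0.39 to -0.28. The small subunit processome was at -0.21. Single genes moved likewise: NOP10 from -0.91 to -0.42, FBL from -0.62 to -0.20, NHP2 from -0.53 to -0.18 and NPM1 from -0.50 to -0.11. TCOF1, at -0.64 beside -0.65, then had the largest difference of the 33, followed by UBTF at -0.57, UTP14A at -0.52 and WDR75 at -0.50. The sizes given below are on the TMM scale.

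The box C/D snoRNP proteins, which carry the methylation of ribosomal RNA, were all lower with indole in wild type. FBL, the methyltransferase fibrillarin, was at 386, 251, 308 and 356 CPM. Wild type with indole was the lowest of these and wild type with DMF the highest, a fold of 1.53 between them (1.48 to 1.59). NOP58, a core scaffold protein, was at 92.0 CPM and 61.4 CPM in the libraries of wild type and at 88.3 CPM and 95.4 CPM in those of the IDO1 line. It was 1.499-fold lower with indole in wild type (1.39 to 1.61), while its other 3 libraries lay close together. NOP56, the partner scaffold of NOP58, was at 309, 259, 311 and 321 CPM in the same order of libraries. Its difference was smaller than that of its partner, at 1.19-fold (1.15 to 1.24).

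Among the box H/ACA snoRNP proteins, which carry the pseudouridylation of ribosomal RNA and are part of telomerase, NOP10 had the largest difference of the whole set on the TMM scale, though it ranked 6 of 33 without the trends. It was at 179.8, 94.97, 160.4 and 195 CPM. The wild type indole library was far below the others, 1.89-fold lower than its control (1.790 to 2.003). NHP2, which binds the guide RNA beside NOP10, was at 75.8, 52.3, 72.0 and 77.5 CPM, and 1.45-fold lower (1.34 to 1.57). DKC1, the pseudouridine synthase dyskerin, was at 63.7, 53.7, 75.3 and 77.3 CPM and 1.19-fold lower (1.09 to 1.29). The core proteins of this complex thus differed unequally on the TMM scale, where the intervals of NOP10, NHP2 and DKC1 do not overlap. Without the trends with abundance, GC content and length they were at -0.42, -0.18 and -0.16 (log2), so NHP2 and DKC1 were then close. GAR1, the remaining core protein, was at 8.32, 8.94, 11.9 and 16.2 CPM. It was lowest in wild type with DMF and highest in the IDO1 line with indole, and in wild type its ratio of 1.07 had an interval that includes 1 (0.866 to 1.33).

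The genes of abundant nucleolar proteins were lower by similar amounts on the TMM scale. NPM1, the nucleolar chaperone nucleophosmin, was at 1578, 1112, 1585 and 1689.8 CPM. NCL, nucleolin, which binds nascent ribosomal RNA, was at 746, 544, 849 and 854 CPM. NOLC1, a phosphoprotein that chaperones snoRNPs, was at 962, 675, 931 and 917 CPM. For these, wild type with indole was clearly the lowest library, at folds of 1.42 (1.39 to 1.44), 1.37 (1.34 to 1.41) and 1.43 (1.39 to 1.46) below its control. GNL3, the nucleolar GTPase nucleostemin, was at 154, 133, 143 and 155 CPM and only 1.16-fold lower (1.10 to 1.23). Without the trends with abundance, GC content and length, NPM1 was at -0.11, NCL at -0.28, NOLC1 at -0.34 and GNL3 at 0.13 (log2).

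The small subunit processome, the assembly on the first part of the precursor, had 9 of 10 genes below 0 and a median of -0.23 (log2). HEATR1, UTP15, WDR43 and WDR75 are subunits that also link processing to transcription by RNA polymerase I. WDR75 was at 60.9, 40.5, 58.5 and 66.2 CPM and was 1.51-fold lower with indole in wild type (1.38 to 1.65). The other 3 of these subunits were between 1.10-fold and 1.18-fold lower, with HEATR1 at 47.9, 43.6, 55.7 and 67.6 CPM. The interval of WDR75 lies above those of the other 3 (1.04 to 1.31 for UTP15, 1.08 to 1.30 for WDR43, 1.00 to 1.21 for HEATR1).

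UTP14A, which activates an RNA helicase, was at 19.9, 13.2, 17.4 and 19.96 CPM, 1.51-fold lower (1.29 to 1.77). NAT10, the acetyltransferase of the small subunit RNA, was at 99.8, 72.8, 99.7 and 104 CPM, 1.37-fold lower (1.28 to 1.47). BYSL, bystin, was at 61.1, 48.4, 70.0 and 61.7 CPM. Smaller differences were seen for NOP14, at 157, 135, 193 and 171 CPM, and for UTP20, at 12.3, 10.6, 15.3 and 15.9 CPM, whose fold of 1.16 has an interval that includes 1 (0.965 to 1.40). RRP12, which takes part in export of the small subunit, was the exception of the block. It was at 106, 122, 122 and 113 CPM, and 1.15-fold higher with indole in wild type (1.09 to 1.22).

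All 6 large subunit assembly genes were lower with indole in wild type. Their median log2 ratio was -0.39. PES1, BOP1 and WDR12 form a complex needed to process the large subunit RNA. PES1 was at 199.7, 136, 182 and 197 CPM and 1.47-fold lower (1.40 to 1.54). BOP1 was at 196, 156, 179 and 184 CPM, 1.26-fold lower (1.20 to 1.32), and WDR12 at 60.2, 49.9, 50.2 and 61.5 CPM, 1.21-fold lower (1.11 to 1.31). The interval of PES1 lies above those of its partners on the TMM scale. Without the trends with abundance, GC content and length, PES1 was at -0.35, WDR12 at -0.34 and BOP1 at -0.18 (log2). WDR12 was as low in the IDO1 line with DMF as in wild type with indole. NOP2, an RNA methyltransferase, was at 134, 95.9, 127 and 129 CPM. NOP16 was at 32.5, 23.3, 34.3 and 35.7 CPM. Both were about equally lower, at 1.40-fold (1.32 to 1.48) and 1.39-fold (1.24 to 1.57). RRP1B was at 79.9, 68.7, 94.2 and 107 CPM, with both wild type libraries below both libraries of the IDO1 line.

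RNA polymerase I and its factors were an uneven block, in which 5 of 7 genes were below 0 and the median was -0.18 (log2). POLR1A, the largest subunit, was at 83.8 and 83.6 CPM in wild type, and at 90.7 and 92.7 CPM in the IDO1 line. Its ratio with indole in wild type was 0.997 (0.932 to 1.07). POLR1B, the second largest subunit, was at 54.1, 40.2, 51.8 and 55.0 CPM and was 1.34-fold lower (1.23 to 1.48). POLR1C, which RNA polymerase III also uses, was at 49.8, 57.0, 59.8 and 52.5 CPM, and was 1.14-fold higher (1.050 to 1.245). The 3 subunits thus had ratios on both sides of 1 in the same pair of libraries. Without the trends with abundance, GC content and length, POLR1A was at -0.25, POLR1B at -0.43 and POLR1C at 0.35 (log2).

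UBTF, the factor that holds ribosomal DNA in its active form, was at 84.5, 57.5, 95.8 and 88.2 CPM, 1.47-fold lower with indole in wild type (1.36 to 1.58). TCOF1, the nucleolar protein treacle, which is mutated in Treacher Collins syndrome and works with UBTF, was at 139, 87.8, 145 and 141 CPM. Its wild type indole library was far below the other 3, 1.58-fold below its control (1.49 to 1.68). RRN3, which brings the polymerase to its promoter, was at 67.7, 59.6, 70.8 and 73.7 CPM, 1.14-fold lower (1.05 to 1.23). MYBBP1A, a nucleolar regulator that represses ribosomal RNA synthesis, was at 132 CPM in both wild type libraries and at 145 and 149 CPM in the IDO1 line, with a ratio of 1.00 in wild type (0.948 to 1.06).

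**Figure D2:**
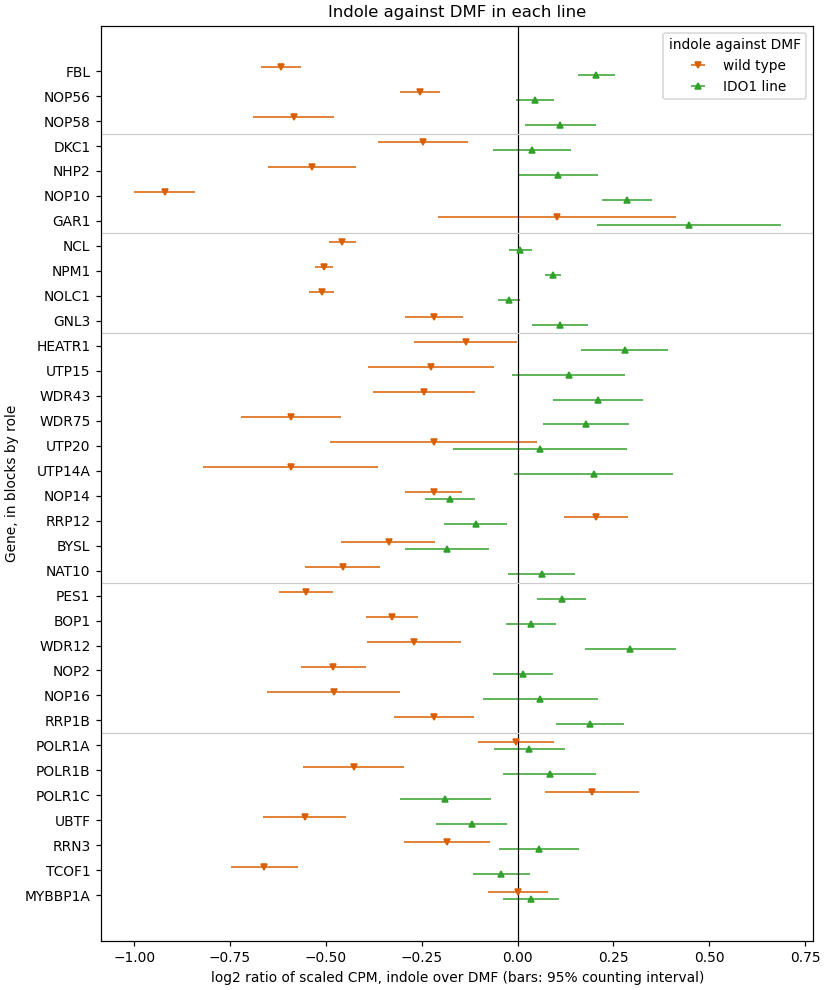
Log2 ratio of CPM with indole over DMF in wild type (downward triangles) and in the IDO1 line (upward triangles) for 34 genes, with 95% counting intervals as bars. Wild type values lie mostly left of 0, with NOP10, TCOF1 and FBL farthest, and IDO1 line values lie near 0.

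In the IDO1 line, indole against DMF gave small differences, mostly upward. Of 34 genes, 27 were above 0, against 48.8% of 8523 genes compared, and 7 below 0, against 51.2%, and the median log2 ratio was 0.06, with a range from -0.19 to 0.42. The counting interval included 1 for 16 of the 34 genes, a count that was not made over all genes, so it cannot be set beside them. A level at least 25% higher was seen for 1 gene, against 4.09% of all genes, and one at least 20% lower for 0, against 3.34%. At 1.5-fold the set had 0 in either direction, against 0.434% higher and 0.282% lower of all genes, and at 2-fold 0, against 0.0469% higher and 0.0352% lower. GAR1 was that 1 gene, at 1.36-fold (1.15 to 1.61), from 272 reads with DMF and 311 with indole. The next in size were WDR12, 1.23-fold higher (1.13 to 1.33), NOP10, 1.22-fold (1.16 to 1.28), HEATR1, 1.21-fold (1.12 to 1.31), and WDR43, 1.16-fold (1.07 to 1.26). FBL was 1.15-fold higher (1.11 to 1.19).

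On the other side, indole in the IDO1 line left POLR1C 1.14-fold lower (1.05 to 1.24), BYSL 1.14-fold (1.05 to 1.22), NOP14 1.13-fold (1.08 to 1.18), UBTF 1.09-fold (1.02 to 1.16) and RRP12 1.08-fold (1.02 to 1.14). These 5 were all the members lower with an interval clear of 1, which was likewise not counted over all genes. The polymerase subunits POLR1A and POLR1B, with RRN3, TCOF1 and MYBBP1A, had intervals that included 1. The direction counts of this comparison were the same with library totals and with median-of-ratios size factors.

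The indole responses of the lines were then set side by side, as differences between the log2 ratio in the IDO1 line and that in wild type. Of 34 genes, 32 had a difference above 0, against 53.1% of 8845 genes, with a median of 0.44 beside 0.03 for all genes. Differences of at least 1.5-fold were upward for 9 genes (26.5%), against 12.4% of all genes, and downward for 0, against 9.84%. NOP10 had the largest, at 1.20, followed by FBL at 0.82, WDR75 at 0.76, UTP14A at 0.75 and NOP58 at 0.69. At 2-fold it was the 1 gene upward, against 2.61% of all genes, with 0 downward, against 2.14%. POLR1C and RRP12 were the 2 genes with differences below 0, at -0.38 and -0.31, against 46.9% of all genes. At the lower limit of 25% up or 20% down there were 24 genes upward, against 28.0%, and 1 downward, POLR1C, against 21.5%. With library totals, 28 of 34 were above 0 and 6 below 0, where 61.0% of all genes were below 0. BYSL, MYBBP1A, NOP14 and POLR1A then changed sign, and 2 genes were at least 1.5-fold upward, against 7.01% of all genes. In 25 of the 34 genes the ratio was below 1 in wild type and above 1 in the IDO1 line, against 28.1% of all 8845 genes, and for 12 of the 34 both counting intervals were also clear of 1, against 10.6% of all genes. At 1.5-fold 4 genes were upward with the abundance trend removed, against 11.1% of all genes, so the members' share was then near that of all genes. Without replicates the difference between the responses has no test.

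The lines were next compared in DMF, which asks how the IDO1 line differs without indole. The set differed little. Of 34 genes, 20 were above 0, against 48.4% of 8500 genes, and 14 below 0, against 51.6%, with a median log2 ratio of 0.06 and a range from -0.32 to 0.47. In the IDO1 line 1 gene was at least 25% higher, against 5.92% of all genes, and 0 at least 20% lower, against 7.71%. At 1.5-fold the counts were 0 higher, against 0.894%, and 0 lower, against 1.26%, and at 2-fold 0 higher, against 0.282%, and 0 lower, against 0.165%. GAR1 was again the gene with the largest ratio, 1.43-fold higher (1.18 to 1.74). FBL was lower at a log2 ratio of -0.32, just short of the limit of 20% on that scale. NOP14 was 1.23-fold higher (1.18 to 1.29), UTP20 1.24-fold (1.05 to 1.46) and POLR1C 1.20-fold (1.11 to 1.30).

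Of the other polymerase I genes, POLR1A was 1.08-fold (1.02 to 1.15), MYBBP1A 1.10-fold (1.05 to 1.16) and UBTF 1.13-fold higher (1.07 to 1.21) in the IDO1 line in DMF. POLR1B, RRN3 and TCOF1 had intervals that included 1. The assembly complex of PES1, BOP1 and WDR12 was lower, with WDR12 at 1.20-fold (1.11 to 1.30) and PES1 and BOP1 at 1.10-fold (1.05 to 1.15) and 1.09-fold (1.05 to 1.14). With library totals, 7 of 34 genes were below 0, against 32.3% of all genes, and NAT10, NHP2, NOLC1, NOP2, NOP58, POLR1B and WDR75 changed sign. The lines also differed in a list of 15 embryonic kidney and neuronal markers, made with earlier results of these data known. All 15 had reads in both libraries of the IDO1 line, with summed levels of 230 and 257 CPM, and 7 and 5 of 15 in wild type, with 97.3 and 57.9 CPM. GAL, named after its values were seen, gave most of the wild type sum, at 91.4, 53.2, 85.1 and 109 CPM, and was not higher in the IDO1 line in DMF. Without it the sums were 5.97 and 4.70 CPM in wild type and 144.8 and 148 CPM in the IDO1 line. UCHL1, NEFM, ZEB2, LIN28B, CADM1, HOXD13 and ADAMTS1 had 0 reads in both wild type libraries. IDO1 overexpression and other differences between the lines cannot be told apart, and the part of these markers in any line difference was not tested.

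In indole, the IDO1 line was above wild type for 32 of 34 genes, against 52.8% of 8765 genes, with a median log2 ratio of 0.51 and a range from -0.12 to 1.03. RRP12 and POLR1C, the other 2 of 34, were below 0, against 47.2%. This comparison uses the same wild type indole library as the first, so its values are not separate evidence. Levels were at least 25% higher for 25 genes (73.5%), against 26.8% of all genes, and at least 1.5-fold higher for 11 (32.4%), against 11.6%. None was 20% lower, against 21.7%, 1.5-fold lower, against 9.75%, or 2-fold lower, against 2.22%. NOP10 alone was 2-fold higher, against 2.28% of all genes, at 2.06-fold (1.95 to 2.18). GAR1 was 1.82-fold higher (1.505 to 2.202), WDR75 1.64-fold (1.496 to 1.791), TCOF1 1.603-fold (1.51 to 1.70) and NCL 1.57-fold (1.53 to 1.61).

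UBTF was 1.53-fold higher in the IDO1 line in indole (1.42 to 1.66), POLR1B 1.37-fold (1.245 to 1.502), RRN3 1.24-fold (1.14 to 1.34), MYBBP1A 1.13-fold (1.07 to 1.19) and POLR1A 1.11-fold (1.04 to 1.19). RRP12 was 1.07-fold lower (1.01 to 1.14), and POLR1C had a ratio of 0.920 (0.844 to 1.00), with an interval that includes 1. All 34 genes kept their sign with library totals, with library totals without the 10 most abundant genes and with median-of-ratios size factors, and all but GNL3 without the trends with abundance, GC content and length. The count at 1.5-fold was 4 with library totals, against 8.81% of all genes, and 3 without the 10 most abundant genes, against 8.33%, or with the abundance trend removed, against 9.82%. The members' share at 1.5-fold was then near that of all genes. At the limit of 25% higher it was 23 of 34 with library totals, against 21.5%, and 22 with the abundance trend removed, against 23.9%.

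**Figure D3:**
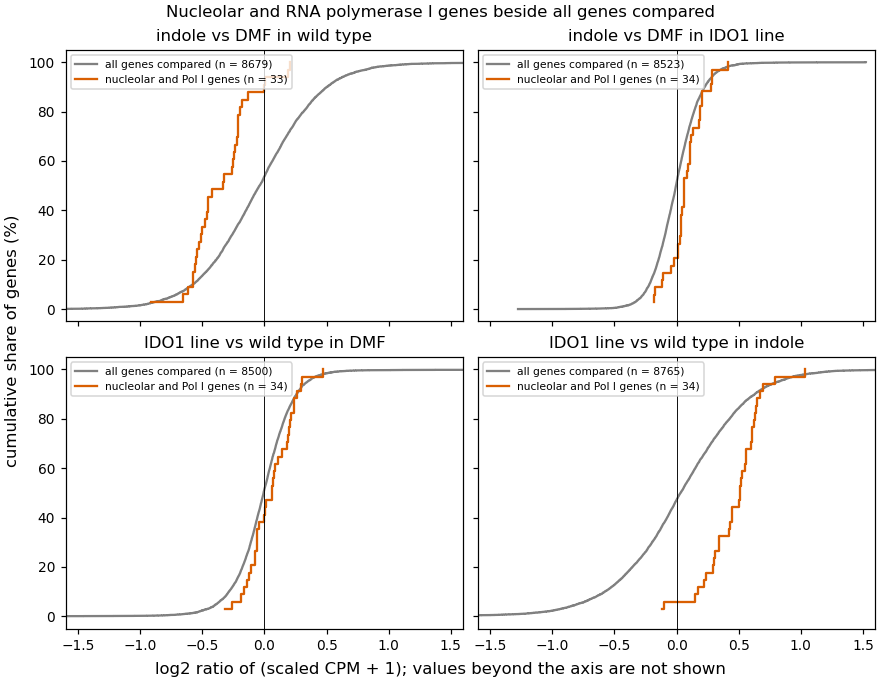
Cumulative share of genes (%) against the log2 ratio of CPM plus 1 in the 4 comparisons, for the nucleolar and RNA polymerase I genes (33 or 34) and for all genes compared (8500 to 8765). The set lies left of all genes with indole in wild type (median -0.33) and right of them for the lines in indole (median 0.51), and is near them in the other panels.

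The order of the libraries gave the same picture. Wild type with indole was the lowest library for 30 of 34 genes (88.2%), against 42.7% of 8845 genes, and the highest for 0, against 35.2%. GAR1, RRP12, POLR1C and MYBBP1A were lowest in wild type with DMF, 4 of 34 against 17.9% of all genes, and 0 genes were lowest in the IDO1 line, against 17.5% in DMF and 21.9% in indole. The IDO1 line with indole was the highest for 23 genes (67.6%), against 22.5% of all genes. In 6 genes the IDO1 line with DMF was highest, against 19.9%, and in 5 wild type with DMF, against 22.4%.

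Additive fits over all 4 libraries asked which genes differed with indole on average over the lines, and with the line on average over the treatments. In edgeR's quasi-likelihood test with Benjamini-Hochberg adjustment over 13122 genes, 0 of 34 members passed for indole, where 0.0% of all genes passed in either direction, and 0 members reached an unadjusted p under 0.05, against 3.41% of all genes. UBTF had the smallest unadjusted p for indole, 0.149, with a log2 fold change of -0.33 (approximate standard error 0.22, adjusted p 1.00, edgeR). For the line, 0 of 34 passed, against 2.03% of all genes rising and 0.419% falling. GAR1 alone reached an unadjusted p under 0.05, against 9.99% of all genes, and its adjusted p in edgeR was 0.286. For indole 27 of 34 fitted effects were below 0, against 48.6% of all genes. DESeq2 also called 0 members for either factor, with 0 at an unadjusted p under 0.05. All 34 fitted line effects were above 0, against 50.9% of all genes, with a median log2 fold change of 0.25 beside 0.01 for all genes. As given above, the line ratio was above 0 for 20 of 34 genes in DMF (median 0.06) and for 32 in indole (median 0.51), so most of the fitted effect came from the pair with the wild type indole library. The fit leaves 1 residual degree of freedom, which takes up any difference between the responses of the lines.

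Related genes that are no members were summarised from 9 lists, to set the members beside the rest of the machinery. As given above, 53.8% of all genes were below 0 with indole in wild type and 25.3% at least 20% lower. All 9 lists had medians below 0 with indole in wild type, although with library totals those of RNA polymerase III and of silencing of ribosomal DNA were above 0, at 0.06 and 0.07. For the IDO1 line against wild type in indole the 9 medians were above 0 under both scalings. Among 32 other small subunit processome genes, 29 were below 0 with indole in wild type, the median was -0.28 (log2), with 13 at least 20% lower and 0 at least 25% higher. UTP3 was at 97.2, 51.1, 100.5 and 94.5 CPM, 1.90-fold lower in wild type (1.76 to 2.06). NOL10 was at 115, 77.5, 119 and 125 CPM, 1.48-fold lower (1.39 to 1.58). For both, wild type with indole was far below the other 3 libraries.

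Among 31 other large subunit assembly genes, 27 were below 0, with a median of -0.42, and 18 were at least 20% lower and 2 at least 25% higher. At 1.5-fold 7 of the 31 were lower, against 9.72% of all genes, and 1 of the 32 other small subunit processome genes. LAS1L, which takes part in cutting the spacer beside the large subunit RNA, was at 87.7, 46.0, 82.6 and 85.5 CPM, 1.90-fold lower (1.76 to 2.07). BRIX1 was at 144, 84.0, 135 and 161 CPM, 1.72-fold lower (1.62 to 1.83). Of 13 late maturation and export genes, 9 were below 0, with a median of -0.24 and 6 at least 20% lower. RIOK1, a kinase of late small subunit maturation, was at 80.3, 42.9, 75.9 and 72.0 CPM. SBDS, which helps to free the large subunit of an assembly factor, was at 31.0, 18.6, 29.01 and 31.7 CPM. They were 1.87-fold (1.72 to 2.04) and 1.67-fold lower (1.47 to 1.91) with indole in wild type.

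The RNA-cutting complexes had medians farther from 0 than the -0.33 of the set, but not after the trends with abundance, GC content and length were removed, where both were at -0.17 beside -0.23. Of 12 nuclear exosome genes, which trim the precursor, 10 were below 0, with a median of -0.43 and 8 at least 20% lower. EXOSC8 was at 90.7, 52.9, 79.2 and 98.5 CPM and EXOSC9 at 50.5, 29.7, 53.1 and 66.3 CPM. For these ring subunits the folds were 1.72 (1.59 to 1.85) and 1.70 (1.54 to 1.89), and both were highest in the IDO1 line with indole. Of 9 proteins of RNase MRP and RNase P, 8 were below 0, with a median of -0.40 and 5 at least 20% lower. POP1 was at 30.9, 14.8, 33.7 and 34.8 CPM, 2.09-fold lower (1.82 to 2.41), and RPP30 at 11.8, 6.30, 9.77 and 10.9 CPM, 1.87-fold lower (1.502 to 2.344).

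Among the polymerases, 9 other RNA polymerase I and promoter factor genes had a median of -0.23, with 8 below 0 and 3 at least 20% lower. ZNRD1, a polymerase I subunit, was at 27.8, 19.997, 25.8 and 28.1 CPM, 1.39-fold lower (1.22 to 1.59). POLR1E was at 109.9, 84.0, 104 and 109 CPM, 1.31-fold lower (1.23 to 1.39). For RNA polymerase III, which makes the 5S ribosomal RNA and transfer RNAs, 14 of 17 genes were below 0, but the median was only -0.10, with 5 at least 20% lower. POLR3K was at 68.5, 50.4, 70.5 and 70.7 CPM and GTF3C2 at 139, 103, 147 and 138 CPM.

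The 4 subunits shared by several polymerases were all at least 1.5-fold lower with indole in wild type, against 9.72% of all genes, with a median of -0.75. At that limit there were 3 of 13 late maturation and export genes, 4 of 12 exosome genes and 2 of 9 RNase MRP and P proteins. The counts were 0 of 9 for the other RNA polymerase I genes, 0 of 17 for RNA polymerase III and 1 of 7 for silencing. POLR2L was at 988, 515, 883 and 800.2 CPM, 1.92-fold lower (1.87 to 1.96), and POLR2F at 77.8, 41.4, 63.3 and 64.7 CPM, 1.88-fold lower (1.73 to 2.05). The subunits common to polymerases were thus lower by more than POLR1A or POLR1B on the TMM scale. Their median was -0.58 with library totals, and -0.47 without the trends with abundance, GC content and length, where POLR1B was at -0.43 and POLR1A at -0.25. Of 7 genes for silencing of ribosomal DNA, 5 were below 0, with a median of -0.10. SUV39H1, a histone methyltransferase, was at 54.6, 30.5, 70.5 and 64.8 CPM, 1.79-fold lower (1.62 to 1.98), and SMARCA5, a chromatin remodeller, at 65.2, 56.9, 73.0 and 77.5 CPM, 1.15-fold lower (1.06 to 1.24). In the IDO1 line, the medians of the 9 lists with indole lay between 0.02 and 0.12.

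**Figure D4:**
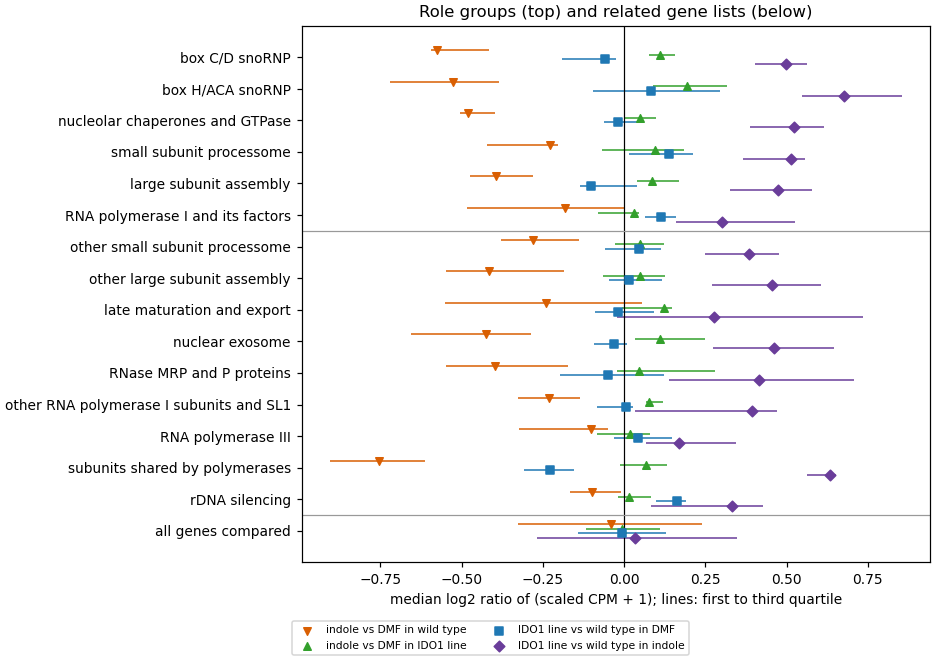
Median log2 ratio of CPM plus 1 (symbols) with lines from the first to the third quartile, for the 6 role groups, the 9 related lists and all genes, with 1 symbol per comparison. Indole in wild type lies left of 0 for all 15 sets on the TMM scale (with library totals RNA polymerase III and silencing were at 0.06 and 0.07), farthest for the subunits shared by polymerases (-0.75), and the IDO1 line with indole lies close to 0.

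Members with and without the E-box were compared last. With indole in wild type, 12 genes with CACGTG had a median log2 ratio of -0.39 and 15 without it -0.27. In the IDO1 line the medians with indole were 0.11 and 0.06. Between the lines in indole they were 0.51 and 0.52. With indole in wild type, log2 ratios ran from -0.91 (NOP10) to 0.00 (MYBBP1A) with the motif. Without it they ran from -0.58 (WDR75) to 0.19 (POLR1C). TCOF1 and NOP58, also among the larger ratios, had no matched promoter. The part of the motif in these differences was not tested.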

How the data were processed

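Total RNA of 4 HCT116 cultures was measured by AmpliSeq, a targeted method that amplifies 1 short amplicon per gene. The authors deposited raw read counts per target for each library, per the file headers, and hg19 is the build given in the submitters' processing notes. The sources used here name no aligner or counting settings. The design text states 2 replicates, but each library has 1 count column, and whether it pools replicates is not stated. The count column of the IDO1 line with DMF does not name DMF, and its group was taken from the sample's title. The files list 20812 genes and 0 targets without a gene name, and depth was 18283862 to 22736172 reads, where 3 reads are 0.131 to 0.157 CPM.

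From the counts, CPM was computed with TMM factors of edgeR 4.0.16 in R 4.3.3. Log2 ratios used a pseudocount of 1 and a minimum of 10 CPM in 1 of the libraries compared, and genes were counted at 1.5-fold, 2-fold and a lower limit of 25% higher or 20% lower. Counting intervals are 95% Clopper-Pearson. The additive fits used edgeR's quasi-likelihood test on raw counts, with line and treatment as terms, filterByExpr, and Benjamini-Hochberg adjustment at 0.05, with DESeq2 1.42.0 as an alternative. The standard error is the log2 fold change over the square root of F. With 1 library per group, pairs of libraries have no test, and p-values of the additive fits measure only the spread between these libraries.

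The genes and lists were chosen with earlier results of these data known. Named are the 5 members with the largest ratio in each comparison, every RNA polymerase I gene and the 2 largest of each related list; the values of the other members complete the set. Alternatives were other scalings, pseudocounts, minimums and folds, and removal of trends with abundance, GC content and length. Promoters came from RefSeq (GRCh38.p14) by symbol, since the files use hg19.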

Additional observations from a re-analysis of the deposited data

Results flagged for a closer look

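The indole responses pointed in opposite directions in the lines for the set's median. In 25 of 34 genes the ratio was below 1 in wild type and above 1 in the IDO1 line, against 28.1% of all genes. RRP12 and POLR1C went the other way. FBL and NOP10 are given because their wild type ratio was at least 1.5-fold and their IDO1 line interval was clear of 1. The median log2 ratio of the set with indole was -0.3306 in wild type and 0.0596 in the IDO1 line. FBL was at -0.62 in wild type and 0.20 in the IDO1 line, and NOP10 at -0.91 and 0.28. With 1 library per group these differences were not tested. The wild type value rests in each case on the wild type indole library, which stands apart from the other 3.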

How the results depend on the processing

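The counts and the set's medians kept their direction under the alternatives run, while GNL3, other single genes mostly with ratios near 0, and medians of role groups and lists near 0, changed sign under some scalings. For indole in wild type, the count at least 1.5-fold lower (3) was 1 with library totals, 1 with totals without the 10 most abundant genes and 1 without trends of abundance, GC content and length, and it was 18 at a limit of 20% lower and 0 at 2-fold. Among all genes the shares at least 1.5-fold lower were 4.86%, 4.87% and 6.66% in that order, against 9.72% with TMM. The set's share was not above them. For the IDO1 line against wild type in indole, the count at least 1.5-fold higher (11) was 4, 3 and 6 under the same 3 settings, 3 without the abundance trend alone, 25 at a limit of 25% higher and 1 at 2-fold. Among all genes the shares at 1.5-fold were 8.81%, 8.33%, 8.95% and 9.82% in that order of scalings, against 11.6% with TMM, so at 3 of 34 the set's share was near that of all genes. For the difference of the responses, the count upward (9) was 2, 4 and 5 under those settings, 4 without the abundance trend alone, 24 at that limit and 1 at 2-fold, where all genes gave 7.01%, 7.32%, 9.35% and 11.1% for the scalings, and the count downward (0) was 1 at 20%. With indole in the IDO1 line, and for the lines in DMF, the count at least 1.5-fold higher (0) was 1 at a limit of 25%. The cause of the shifts with scaling was not tested. Members called in the additive fits stayed at 0 in edgeR with library totals, with no filter and with a 10 CPM minimum, and in DESeq2. The number of all genes called for the line (322) was 86 in DESeq2 and 74 with the 10 CPM minimum, and for indole (0) it was 6 with library totals, 10 with no filter and 5 with the 10 CPM minimum. No paired analysis was possible because each group is 1 library and the labels give no replicate numbers. Leaving out a library of the additive fits leaves 0 residual degrees of freedom, so it gives no test. RRP9 had 0 to 2 reads, for which a cause was not tested. Low counts widen the intervals of GAR1 and UTP20.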
